A study of Homo sapiens with 12 samples.

Results

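The 9 genes described here encode enzymes of the tricarboxylic acid (TCA) cycle: CS, IDH3A, IDH2, OGDH, DLST, SUCLG1, SUCLA2, FH and MDH2. They were chosen by name, and the expression of each was taken as the summed abundance of its transcripts whose class code was =, a match to a reference transcript, or j, a model sharing at least one splice junction with one. That gave 9 of 56537 gene names and 152 of 286562 such transcripts. All 9 genes and 54 of the 152 transcripts passed the filter on low values, an abundance above 0.5 in at least 3 libraries.

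The cells were HCT116, a line established from a human colorectal carcinoma. Cultures at 21% oxygen (0 h) were compared with cultures placed in 1% O2 for 1, 2 or 24 h in a hypoxia workstation, beginning 24 h after plating, and 3 biological replicates were sequenced at each time, 12 libraries in all. No group differed by genotype, and whether the 0 h and 24 h cells spent the same time in culture was not given in the sources used here, so time in culture and low oxygen cannot be told apart at 24 h. All libraries came from one cell line, so p-values measure the spread between cultures of that line only.

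Abundance was given as FPKM, the fragments of a transcript divided by its length and by the mapped fragments of the library, so levels may be set side by side between genes. Read counts were not analysed here, so the spread between 3 replicates is the measure of precision. The 5 epithelial markers fixed as a check (EPCAM, KRT8, KRT18, KRT19 and CDH1) were detected throughout, with a summed FPKM of 1998 to 2820 at 0 h and 2491 to 2730 at 24 h. CDH1 (log2 fold change 1.76) and KRT19 (0.99) rose at 24 h at an adjusted p under 0.05 and the other 3 did not pass, and their part in the results was not tested. Of 5 markers of other cell types, PECAM1 was listed at 0 in every library and PTPRC, COL1A2 and DCN at or near 0. The fifth, COL1A1, carried their summed FPKM of 1.82 to 2.16 at 0 h and 5.75 to 8.79 at 24 h, and its part in the results was not tested. All 8 hypoxia-responsive genes fixed as a check (CA9, ANKRD37, NDRG1, EGLN3, PDK1, LDHA, PGK1 and BNIP3) rose at 24 h, with a median log2 fold change of 3.23. Transcripts under 300 bases carried 57.0% to 87.6% of a library's summed FPKM.

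The TCA cycle oxidises acetyl groups in the mitochondrial matrix and passes the electrons to the respiratory chain as NADH and reduced flavin. Citrate synthase opens the cycle, isocitrate and 2-oxoglutarate are then oxidised with loss of carbon dioxide, succinyl-CoA gives up its energy as a nucleoside triphosphate, and fumarate and malate are converted back to oxaloacetate. In low oxygen, cells are known to divert pyruvate to lactate, and PDK1, a kinase that inhibits pyruvate dehydrogenase, is a known target of the hypoxia-inducible factor.

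At 24 h the transcripts of FH and IDH3A fell and those of IDH2 rose. By the thresholds of the study, an absolute log2 fold change above 1 with an adjusted p under 0.01, these were 3 of the 9 genes, against 18.3% of all 16680 genes tested (8.76% higher and 9.51% lower). CS, DLST, SUCLG1 and SUCLA2 also fell, by smaller amounts, at an adjusted p under 0.05. By that rule 7 of the 9 genes were called, 6 of them lower, against 55.3% of all genes (25% higher and 30.3% lower). OGDH and MDH2 did not pass the test. The median log2 fold change of the 9 genes was -0.45, and that of all genes was -0.05. Added over the 9 genes, the FPKM was 629 ± 3.65 before hypoxia (SD over 3 libraries). After 24 h it was 493 ± 36.4, or 78.4% of the 0 h mean. Changes are on the scale of log2(FPKM + 0.5), which understates those of low genes, and were tested with limma over all 12 libraries with Benjamini-Hochberg adjustment over all genes. In such bulk samples, fewer cells that carry a transcript and less of it per cell cannot be told apart.

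**Figure D1:**
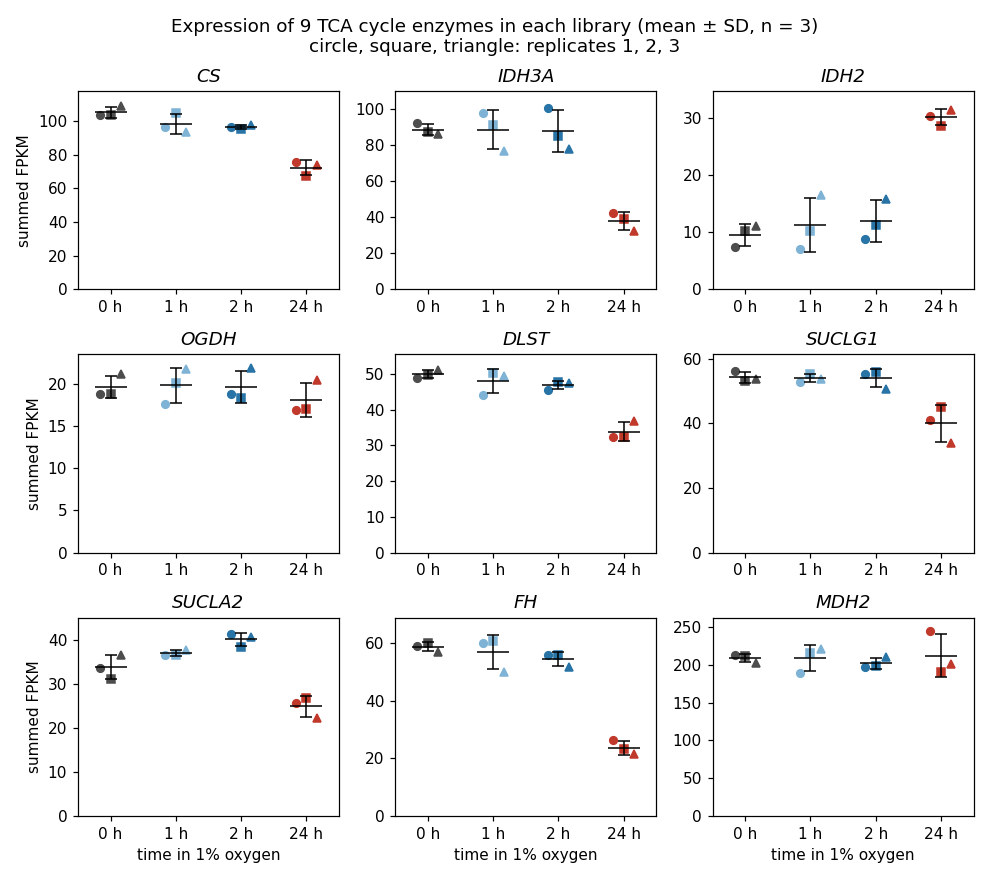
Summed FPKM (y axis, from 0) of each of the 9 genes in each of the 12 libraries by time in 1% oxygen (x axis), with the mean and SD of 3 replicates as bars. The 24 h points of FH and IDH3A lie far below all others, those of IDH2 lie above all others, and those of OGDH and MDH2 overlap the 0 h points.

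Isocitrate is oxidised in mitochondria by an NAD-dependent and an NADP-dependent enzyme, and IDH3A and IDH2, which encode a subunit of the first and the second, moved in opposite directions. IDH3A encodes the catalytic subunit of the NAD-dependent isocitrate dehydrogenase and lies on chr15:78423840-78464287, plus strand (GRCh37). Its FPKM was 92.0, 87.0 and 86.0 in the 0 h libraries, 97.3, 91.2 and 76.4 at 1 h, 100.1, 84.9 and 77.4 at 2 h, and 42.3, 38.9 and 32.2 at 24 h. Every 24 h library was lower than every earlier one, while the first 3 times overlapped. The log2 fold change at 24 h was -1.22 (SE 0.13, adjusted p = 9.70e-06).

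IDH2 encodes the mitochondrial NADP-dependent isocitrate dehydrogenase, which can run in either direction, and lies on chr15:90626277-90645709, minus strand. Its FPKM was 7.43, 10.2 and 11.2 at 0 h, 7.13, 10.2 and 16.5 at 1 h, 8.76, 11.2 and 15.9 at 2 h, and 30.4, 28.6 and 31.4 at 24 h. Every 24 h library was higher than every earlier one, and replicate 3 was the highest at each time. The log2 fold change was 1.62 (SE 0.27, adjusted p = 0.000282). Scaled to TPM, in which all transcripts of a library, short ones included, sum to the same total, the change was 0.75 with an adjusted p of 0.130, beside a median over all genes of -0.68 on that scale.

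FH encodes fumarate hydratase, which adds water to fumarate to give malate, and lies on chr1:241660811-241683099, minus strand. Its FPKM was 59.1, 60.2 and 57.1 at 0 h, 60.1, 60.7 and 50.1 at 1 h, 55.8, 55.9 and 51.9 at 2 h, and 26.4, 23.2 and 21.5 at 24 h. The 24 h libraries again lay below all 9 others. The log2 fold change was -1.30 (SE 0.10, adjusted p = 1.27e-06). Among all genes tested, 4.72% had a change as low as that of FH or lower, 5.83% one as low as that of IDH3A, and the rise of IDH2 lay at percentile 97.3.

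The sequences before the starts of these 3 genes are shown because their transcripts moved past the thresholds of the study, IDH2 in the other direction from FH and IDH3A. Capitals mark the core letters of the hypoxia response element searched for, ACGTG or GCGTG on either strand, which read CACGT or CACGC when on the other strand. Those of FH and IDH3A are the 250 bases before the RefSeq start in the table for GRCh38.p14, each matched once in GRCh37, at chr1:241683056-241683305 on the minus strand and chr15:78441454-78441703 on the plus strand. For IDH2 the RefSeq start lies 74 bases inside ENST00000540499, the transcript with most of its FPKM, so the 250 bases before the annotated starts of its 2 most abundant transcripts were read from GRCh37. They span chr15:90643928-90644177 and chr15:90645701-90645950 on the minus strand, and the starts are 1773 bases apart.
FH: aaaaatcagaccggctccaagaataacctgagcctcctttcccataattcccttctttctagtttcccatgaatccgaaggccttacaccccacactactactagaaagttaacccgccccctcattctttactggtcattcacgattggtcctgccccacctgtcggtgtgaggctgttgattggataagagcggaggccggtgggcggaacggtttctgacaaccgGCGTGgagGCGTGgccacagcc
IDH3A: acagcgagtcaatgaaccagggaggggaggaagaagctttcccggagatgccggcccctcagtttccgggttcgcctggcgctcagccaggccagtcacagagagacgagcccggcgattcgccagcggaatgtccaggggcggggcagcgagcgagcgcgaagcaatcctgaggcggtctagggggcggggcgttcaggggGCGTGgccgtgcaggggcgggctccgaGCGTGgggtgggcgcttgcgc
IDH2, ENST00000540499: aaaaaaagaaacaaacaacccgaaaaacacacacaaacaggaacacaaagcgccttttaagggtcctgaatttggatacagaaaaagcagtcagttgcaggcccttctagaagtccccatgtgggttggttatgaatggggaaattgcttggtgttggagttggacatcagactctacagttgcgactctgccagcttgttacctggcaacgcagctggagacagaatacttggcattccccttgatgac
IDH2, ENST00000330062: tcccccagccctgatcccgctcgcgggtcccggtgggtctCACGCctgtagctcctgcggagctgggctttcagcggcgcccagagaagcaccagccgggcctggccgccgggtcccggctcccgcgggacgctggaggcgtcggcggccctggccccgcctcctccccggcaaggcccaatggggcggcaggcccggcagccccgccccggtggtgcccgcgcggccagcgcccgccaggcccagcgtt

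FH and IDH3A each held the letters GCGTG at a pair of positions, counted back from the start (-22 and -14 in FH, -48 and -21 in IDH3A). The stretch before ENST00000330062 held CACGC once, at -210, and that before ENST00000540499 held none. These IDH2 stretches differed in base composition, with 79.2% G or C and 30 CpG dinucleotides before ENST00000330062 and 46.0% and 4 before ENST00000540499. By the RefSeq windows, 4 of the 8 enzymes with an entry held a core (FH, IDH3A, SUCLG1 and IDH2) and 4 did not (CS, SUCLA2, DLST and MDH2), beside 43.2% of 35116 promoters in the table. The IDH2 core in this count is a CACGC at -15 from the RefSeq start. It lies inside ENST00000540499 and in neither IDH2 stretch printed above. OGDH had no entry. A match of 5 letters is a description of the sequence and not a binding site.

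CS encodes citrate synthase, which joins acetyl-CoA to oxaloacetate, and lies on chr12:56665483-56694175, minus strand. Its FPKM was 103, 103 and 109 at 0 h, 96.5, 105 and 93.2 at 1 h, 96.1, 95.2 and 97.9 at 2 h, and 75.4, 67.6 and 74.04 at 24 h. The 24 h libraries lay below all others, and the log2 fold change was -0.54 (SE 0.08, adjusted p = 0.000120). Its Cufflinks locus also holds PAN2, CNPY2 and RP11-977G19.10, so fragments of overlapping transcripts may be shared among them.

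The 2-oxoglutarate dehydrogenase complex oxidises 2-oxoglutarate to succinyl-CoA, with OGDH as the dehydrogenase, DLST as the succinyl transferase and DLD as the subunit that reoxidises the lipoyl groups. DLST, on chr14:75348594-75370446, plus strand, had an FPKM of 48.9, 49.7 and 51.1 at 0 h, 44.2, 50.3 and 49.4 at 1 h, 45.5, 47.7 and 47.4 at 2 h, and 32.3, 32.3 and 36.8 at 24 h. It fell by 0.56 on the log2 scale (SE 0.09, adjusted p = 0.000169), with no overlap between 24 h and any earlier time. OGDH, on chr7:44646171-44748665, plus strand, had an FPKM of 18.8, 18.8 and 21.1 at 0 h, 17.6, 20.0 and 21.7 at 1 h, 18.8, 18.3 and 21.8 at 2 h, and 16.8, 17.0 and 20.4 at 24 h. Its 0 h and 24 h libraries overlapped, and replicate 3 was the highest at every time. The log2 fold change of OGDH was -0.12 (95% interval -0.37 to 0.14, adjusted p = 0.427).

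Succinyl-CoA ligase converts succinyl-CoA to succinate with synthesis of ATP or GTP. SUCLG1 encodes its alpha subunit, shared by both forms, and SUCLA2 the beta subunit of the ATP-forming enzyme. SUCLG1, on chr2:84650652-84687169, minus strand, had an FPKM of 56.3, 53.0 and 53.6 at 0 h, 52.6, 55.1 and 53.9 at 1 h, 55.1, 55.9 and 50.7 at 2 h, and 40.9, 45.1 and 33.8 at 24 h. SUCLA2, on chr13:48319871-48612104, minus strand, had an FPKM of 33.8, 31.3 and 36.6 at 0 h, 36.7, 36.7 and 37.9 at 1 h, 41.4, 38.6 and 40.7 at 2 h, and 25.8, 26.9 and 22.3 at 24 h. In both genes the 24 h libraries lay below all others. The log2 fold change was -0.45 for SUCLG1 (SE 0.10, adjusted p = 0.00271) and -0.44 for SUCLA2 (SE 0.09, adjusted p = 0.00192).

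MDH2 encodes the mitochondrial malate dehydrogenase, which closes the cycle by oxidising malate to oxaloacetate, and lies on chr7:75677369-75696826, plus strand. With classes = and j summed it was the most abundant of the 9 at every time. With class = alone it lay below FH, the mean ratio of FH to MDH2 being 1.99 at 0 h and 1.48 at 24 h. Its FPKM was 213, 212 and 202 at 0 h, 189, 216 and 221 at 1 h, 197, 198 and 210.1 at 2 h, and 245, 190.5 and 202 at 24 h. The groups overlapped, with 24 h libraries both above and below all 0 h libraries, and the log2 fold change was 0.01 (95% interval -0.21 to 0.24, adjusted p = 0.925). This value rests on one transcript of class j that held 84.1% of the MDH2 FPKM at 0 h. With transcripts of class = alone the log2 fold change was -0.86 (adjusted p = 3.66e-05).

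Over the first hours no enzyme passed either threshold. At 1 h the log2 fold changes of the 9 genes lay between -0.10 and 0.16, and 0 of 9 were called, against 0.006% of all genes by either rule. At an unadjusted p under 0.05 it was also 0 of 9, against 4.61% of all genes. At 2 h they lay between -0.13 and 0.28, and again 0 of 9 were called by limma, against 0.018% of all genes by the thresholds of the study and 0.312% at an adjusted p under 0.05. The highest of them, that of IDH2, lay between 0.067 and 0.48 when a library was left out. One of the 9, SUCLA2, had an unadjusted p under 0.05 at 2 h, against 15.3% of all genes (log2 fold change 0.25, SE 0.09, adjusted p = 0.254). All its 2 h libraries lay above its 0 h libraries, while those of CS, DLST and FH lay below theirs, 4 of 9 genes without overlap beside 25.3% of all genes (12.2% higher and 13.1% lower). Between 2 h and 24 h, a comparison that shares the 24 h libraries with that against 0 h, IDH3A, IDH2 and FH were again called, 3 of 9 against 14.7% of all genes, and 7 of 9 against 50.6% by the second rule. At 24 h against 0 h, 7 of the 9 genes had groups that did not overlap, 1 higher and 6 lower, beside 60.4% of all genes (27.6% higher and 32.8% lower). With TPM over all transcripts, 7 of the 9 passed the second rule at 2 h, against 54.5% of all genes on that scale, where the median of all genes was -0.88. On it the comparison of 24 h with 2 h gave 0 of 9 by the thresholds of the study, against 3.81% of all genes, and 1 of 9 by the second rule, against 8.56%, with log2 differences of IDH3A (-0.96), FH (-0.93) and IDH2 (1.44) in place of -1.20, -1.19 and 1.34. At 24 h against 0 h it gave 4 of 9 by the thresholds of the study, all lower, against 24.6% of all genes.

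**Figure D2:**
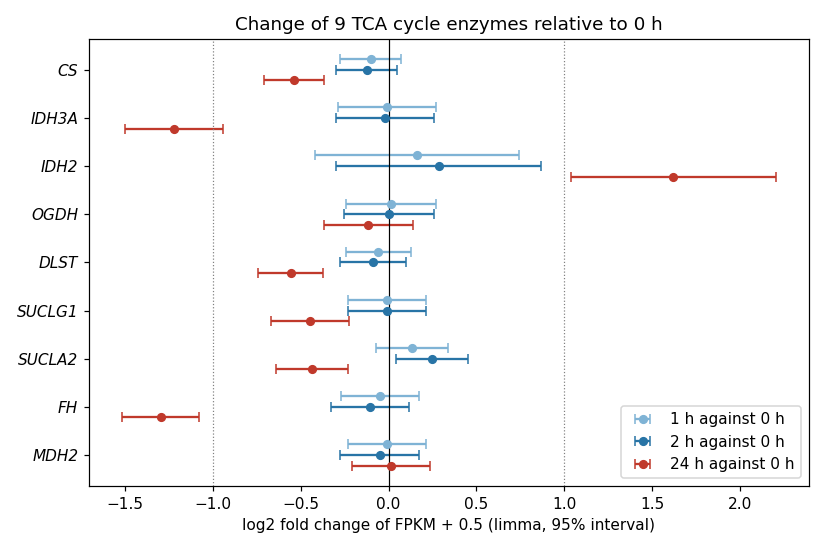
Log2 fold change of FPKM + 0.5 relative to 0 h (x axis) with its 95% interval from limma for each of the 9 genes (y axis) at 1, 2 and 24 h, with dotted lines at -1 and 1. All 1 h and 2 h intervals hold 0 except that of SUCLA2 at 2 h, while those at 24 h lie below 0 for 6 genes, above 0 for IDH2 and across 0 for OGDH and MDH2.

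The order of the levels changed between the times. The place of MDH2 in it rests on its leading class j transcript. At 0 h the genes ranked MDH2, CS, IDH3A, FH, SUCLG1, DLST, SUCLA2, OGDH and IDH2, and no neighbours overlapped over the 3 libraries. At 1 h and 2 h the order was the same, with overlap of CS with IDH3A and of FH with SUCLG1. At 24 h it was MDH2, CS, SUCLG1, IDH3A, DLST, IDH2, SUCLA2, FH and OGDH, and SUCLG1 overlapped IDH3A, IDH3A overlapped DLST and SUCLA2 overlapped FH. IDH2 thus went from the lowest of the 9, at 9.58 ± 1.93 FPKM (SD, n = 3), to the sixth, at 30.1 ± 1.40, and FH from the fourth, at 58.8 ± 1.54, to the eighth, at 23.7 ± 2.50.

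Ratios within a library do not depend on how libraries are scaled, but do depend on which transcripts are summed. Of these, 8 were computed, with the pairs chosen after the values had been seen. The ratio of IDH2 to IDH3A was 0.109 ± 0.025 (SD, n = 3) at 0 h and 0.809 ± 0.143 at 24 h, 7.42 times higher. The ratio of FH to MDH2, consecutive enzymes of the cycle, was 0.281 ± 0.0034 at 0 h and 0.112 ± 0.0083 at 24 h, or 0.399 times. With transcripts of class = alone, an alternative chosen after seeing the data that lacks the leading model of MDH2, the ratio was 1.99 ± 0.20 at 0 h and 1.48 ± 0.24 at 24 h, or 0.744 times and again without overlap. IDH3A also changed against the partner subunits of its own enzyme, from 1.196 ± 0.065 to 0.539 ± 0.052 against IDH3B and from 3.29 ± 0.13 to 1.40 ± 0.13 against IDH3G. These 4 ratios did not overlap between 0 h and 24 h.

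Within succinyl-CoA ligase, the ratio of SUCLA2 to SUCLG2, the beta subunit of the GTP-forming enzyme, went from 1.45 ± 0.11 to 0.676 ± 0.217 without overlap. The ratio of SUCLA2 to SUCLG1 was 0.625 ± 0.051 at 0 h and 0.628 ± 0.032 at 24 h, with overlap. At 2 h it was 0.7475 ± 0.0561, above all 0 h libraries (at least 0.690 against at most 0.683). In the 2-oxoglutarate dehydrogenase complex, DLST to OGDH went from 2.56 ± 0.12 to 1.87 ± 0.07 and DLST to DLD from 0.645 ± 0.034 to 0.718 ± 0.056, neither with overlap. At 2 h DLST to DLD was 0.5375 ± 0.0473, below all 0 h libraries (at most 0.588 against at least 0.606). With transcripts of class = alone DLST to DLD did overlap (at most 0.595 at 0 h and at least 0.593 at 24 h), and the other 7 ratios were as before in whether they overlapped. A two-sided exact permutation test of 3 libraries against 3 gave p = 0.1 for 7 of the 8 ratios. This exact permutation test allows no smaller p, so its value (Benjamini-Hochberg adjusted p = 0.114) only restates that the groups did not overlap. For SUCLA2 to SUCLG1 the same exact permutation test gave p = 0.9. The share of other gene pairs without overlap was not computed, so the count of 7 of 8 has no baseline. Of single genes, 60.4% did not overlap at 24 h against 0 h.

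**Figure D3:**
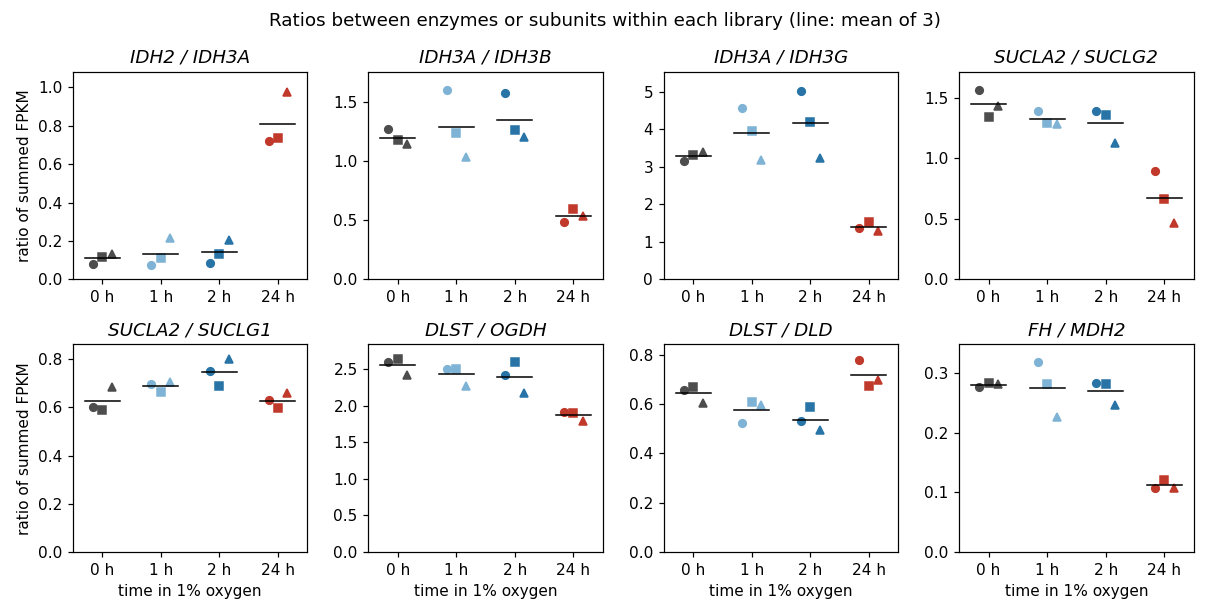
Ratio of the summed FPKM of 2 genes (y axis, from 0) in each of the 12 libraries by time in 1% oxygen (x axis), with a line at the mean of 3. The mean ratio of IDH2 to IDH3A is 0.109 at 0 h and 0.809 at 24 h, that of FH to MDH2 0.281 and 0.112, and that of SUCLA2 to SUCLG1 0.625 and 0.628.

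Other subunits of the cycle in mitochondria gave a mixed result at 24 h. Of 8 further genes (IDH3B, IDH3G, DLD, SUCLG2, SDHA, SDHB, SDHC and SDHD), 0 passed the thresholds of the study, against 18.3% of all genes. At an adjusted p under 0.05 SUCLG2 rose and DLD, SDHB and SDHD fell, against 25% of all genes higher and 30.3% lower, and the median log2 fold change was -0.09. SUCLG2 had the highest change of that list, 0.69 (adjusted p = 0.00315, FPKM 23.5 ± 1.95 to 39.0 ± 9.76, n = 3), and DLD the lowest, -0.71 (adjusted p = 0.000105, FPKM 77.6 ± 5.77 to 47.3 ± 5.66). IDH3B and IDH3G, which form the NAD-dependent isocitrate dehydrogenase together with IDH3A, had log2 fold changes of -0.08 and 0.01 and did not pass.

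Among 4 isoenzymes and paralogs (IDH1, MDH1, ACO1 and OGDHL), OGDHL, a paralog of OGDH, was called higher, against 8.76% of all genes by the thresholds of the study. Its FPKM went from 2.198 ± 0.254 to 5.44 ± 0.39 (log2 fold change 1.14, adjusted p = 0.00236), and the others did not pass either rule. The cytosolic counterparts of IDH2 and MDH2, IDH1 and MDH1, had log2 fold changes of -0.15 and -0.05.

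Of 9 genes of the reactions that feed the cycle or draw from it (PDHA1, PDHB, DLAT, PDHX, PC, GLUD1, ME2, GOT2 and PCK2), 2 rose and 4 fell at an adjusted p under 0.05, against 25% of all genes higher and 30.3% lower. PC, the pyruvate carboxylase that makes oxaloacetate, rose from 3.17 ± 0.42 to 11.4 ± 2.44 FPKM (log2 fold change 1.68, adjusted p = 0.000633). DLAT, the acetyl transferase of the pyruvate dehydrogenase complex, fell from 52.1 ± 1.91 to 22.02 ± 3.23 FPKM (log2 fold change -1.23, adjusted p = 2.42e-06). These were the only genes of that list past the thresholds of the study. GLUD1 also rose, PDHA1, ME2 and GOT2 also fell, and the median of the 9 was -0.25.

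**Figure D4:**
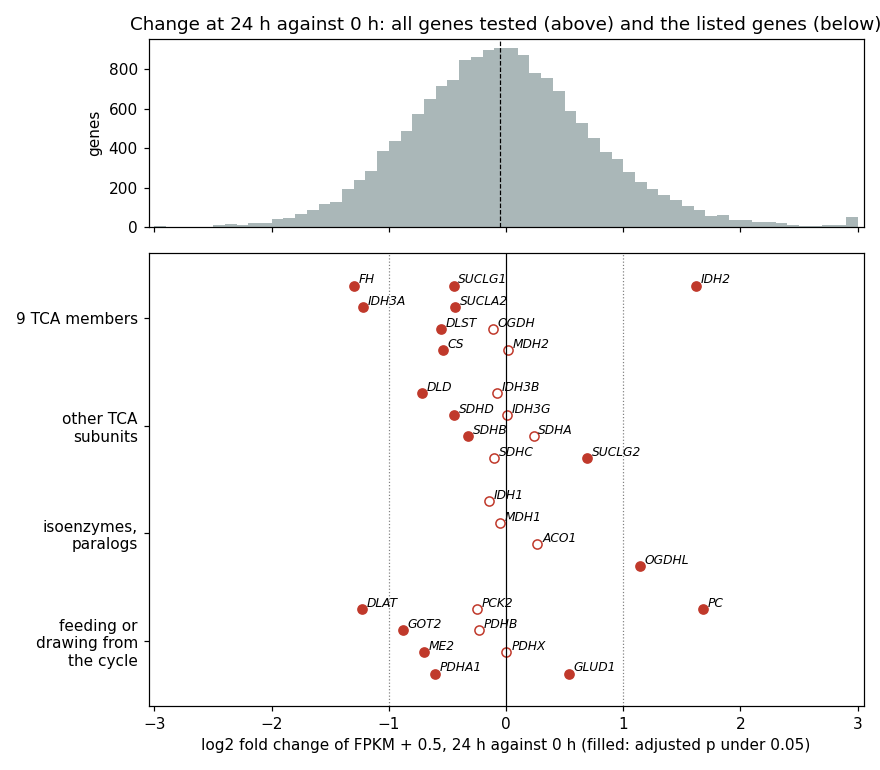
Histogram of the log2 fold change of all 16680 genes tested at 24 h against 0 h (upper panel, values beyond 3 placed at the ends, dashed line at the median of -0.05) and the changes of the 9 genes and of 3 lists of related genes on the same x axis (lower panel, filled where the adjusted p was under 0.05). IDH2, OGDHL and PC lie beyond 1, and FH, IDH3A and DLAT beyond -1.

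For most of the enzymes one transcript carried the gene. ENST00000366560 held 98.5% of the FPKM of FH at 0 h and 98.3% at 24 h, and ENST00000393868 held 98.9% and 98.4% of that of SUCLG1. ENST00000378654 held 92.6% and 87.6% of SUCLA2, ENST00000351328 85.9% and 91.1% of CS, and ENST00000334220 80.9% and 76.0% of DLST. Next in CS came ENST00000548567, with 2.96% and 1.27% (log2 fold change at 24 h -1.36, adjusted p = 0.000835). In DLST it was a class j model nearest to ENST00000334220, with 5.8% and 4.6% (-1.10, adjusted p = 0.182). In SUCLA2 it was ENST00000543413, with 2.46% and 5.41% (0.48, adjusted p = 0.202). OGDH was shared by ENST00000222673, with 48.1% and 52.6%, and ENST00000449767, with 39.8% and 37.1%. At an adjusted p under 0.05, 18 of the 54 transcripts tested changed at 24 h, 4 higher and 14 lower, against 26.7% of all 62162 transcripts (11.3% higher and 15.3% lower). The 4 that rose were 3 of IDH2 and 1 of MDH2. Leaving out any one 0 h or 24 h library gave fewer calls, 12 to 16.

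IDH2 was carried by 3 transcripts, and all rose. ENST00000540499, on its own start-site group, had an FPKM of 4.09, 6.20 and 5.91 at 0 h and 18.2, 16.6 and 17.9 at 24 h (log2 fold change 1.63, adjusted p = 0.00165). ENST00000330062, whose start is farther upstream, had 1.48, 2.63 and 3.16 at 0 h and 6.37, 5.64 and 7.12 at 24 h (log2 fold change 1.28, adjusted p = 0.0149). ENST00000539790 shares that upstream start-site group and rose by 1.65 (adjusted p = 0.00236). Summed by start, the downstream group went from 5.40 ± 1.14 to 17.6 ± 0.86 FPKM and the upstream group from 4.18 ± 0.98 to 12.6 ± 0.80 (SD, n = 3), 3.25 and 3.00 times the 0 h mean. The downstream group held 56.3% ± 4.2 of the IDH2 FPKM at 0 h and 58.3% ± 1.5 at 24 h, and no IDH2 transcript changed in usage, its abundance relative to the rest of the gene, at an adjusted p under 0.05.

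IDH3A was spread over more transcripts. ENST00000558554, a protein-coding transcript, fell from 29.6, 28.6 and 27.0 FPKM at 0 h to 11.4, 10.9 and 10.5 at 24 h (log2 fold change -1.33, adjusted p = 9.10e-05), and its share of the gene was 32.1% and 29.3%. ENST00000558535, annotated without a defined coding sequence, fell from 25.8, 25.1 and 23.7 to 9.30, 8.53 and 8.81 FPKM (log2 fold change -1.44, adjusted p = 5.49e-05), with a share of 28.2% and 23.7%. Thus the coding and the noncoding transcripts of highest abundance both fell, with no overlap between 0 h and 24 h.

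Usage was called for 3 of 52 transcripts tested, 1 higher and 2 lower, against 10.7% of all 57084 (5.24% higher and 5.46% lower). Without a filter on low FPKM it was 37 of 125, against 23% of all 169461. That count takes in transcripts near 0, whose usage value mostly follows the rest of the gene. Leaving out a library gave 1 to 3 calls, and without 0 h replicate 3 only that of ENST00000461263 was left. In MDH2, ENST00000461263 fell from 10.9, 11.6 and 13.99 FPKM to 5.43, 5.38 and 5.01, and its share of the gene from 5.84% to 2.51% (usage log2 fold change -1.19, adjusted p = 0.0122). ENST00000443006 of MDH2 went from 15.4, 12.4 and 8.92 FPKM to 7.10, 5.19 and 1.96, and its share from 5.83% to 2.199% (usage log2 fold change -1.46, adjusted p = 0.0368). That call was lost without any one of the 0 h libraries and without 24 h replicate 3. The leading MDH2 transcript, a class j model nearest to ENST00000315758, had 180.4, 180.5 and 167 FPKM at 0 h and 221, 169 and 176 at 24 h, with a share of 84.1% and 88.8% (usage adjusted p = 0.0674). The third call was a class j transcript of IDH3A nearest to ENST00000560667, of 0.28 FPKM at 0 h and 0.34 at 24 h, whose level did not pass the test (log2 fold change 0.06, adjusted p = 0.911) while the sum of the gene fell (usage log2 fold change 1.29, adjusted p = 0.0146). That call was lost without 0 h replicate 3.

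**Figure D5:**
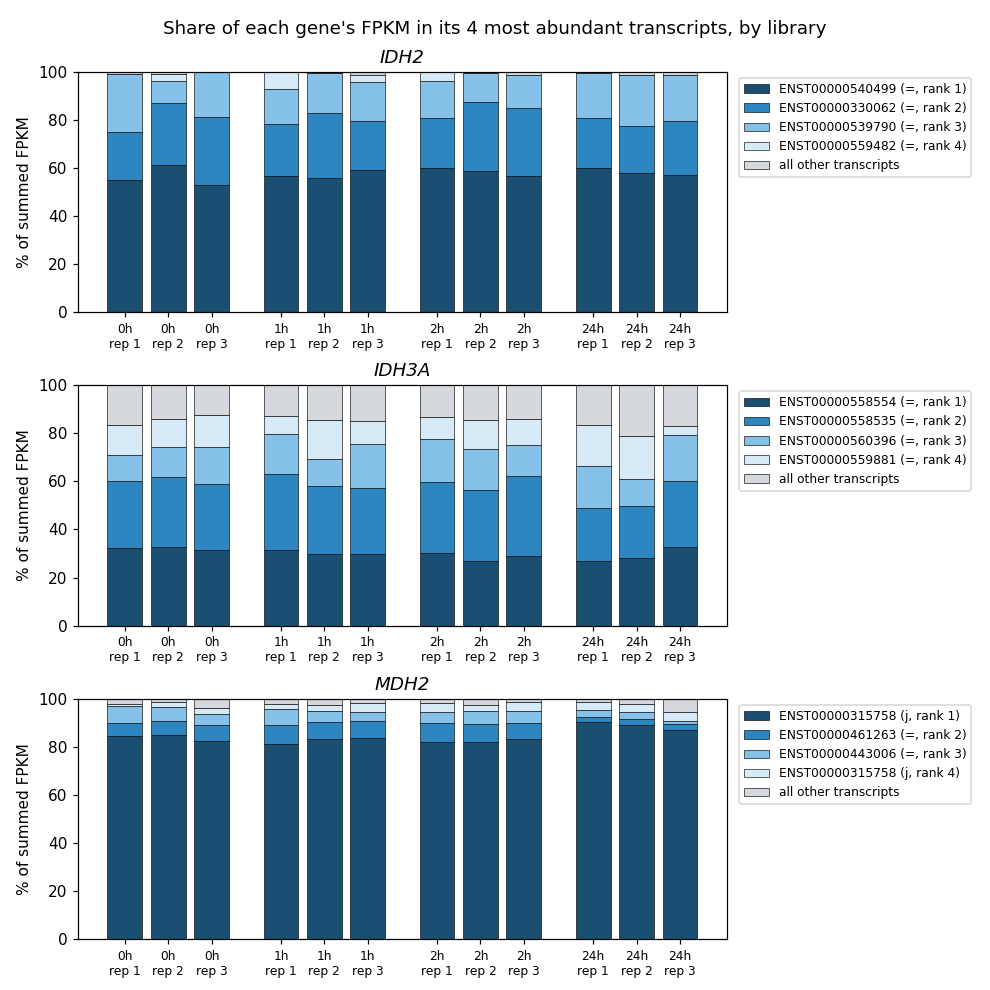
Share of the summed FPKM of IDH2, IDH3A and MDH2 (y axis, percent) in the 4 most abundant transcripts of each and in all others, for each of the 12 libraries (x axis), with the class code and rank in the legend. The leading IDH2 transcript holds 56.3% at 0 h and 58.3% at 24 h on average, and the leading MDH2 transcript 84.1% and 88.8%.

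Transcript types came from GENCODE by reference transcript. A class j model took the type of its nearest one, and its own coding status was not tested. Nonsense-mediated decay, retained-intron and other noncoding types held 47.3% ± 2.9 of the IDH3A FPKM at 0 h and 50.2% ± 9.7 at 24 h (SD, n = 3, two-sided exact permutation p = 0.9). Leaving out a library turned the sign of that difference, which then lay between -2.67 and 6.10 points. In DLST they held 6.51% ± 0.57 and 9.32% ± 1.57, without overlap (exact permutation p = 0.1, the smallest possible), and in CS 5.87% ± 1.87 and 5.27% ± 2.82 (exact permutation p = 0.8). In FH, SUCLG1, MDH2, OGDH and IDH2 the mean was at most 1.64% at either time. In SUCLA2, 8 of 13 transcripts had a type in GENCODE, but those without one, ENST00000378654 among them, held 90.0% to 100.0% of its FPKM, IDH2 had up to 24.1% of its FPKM without one, and IDH3A up to 9.88%, more than the difference in its noncoding share.

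The genes whose profile over the 12 libraries was most like the mean standardised profile of the 9 enzymes were MLF1IP (Pearson's r = 0.984), H2AFX (0.982), KDM1A (0.982), POMZP3 (0.981) and MCM2 (0.979), of 10260 genes with a mean FPKM of at least 5. The mean joins genes that moved in opposite directions, IDH2 having r = -0.947 with IDH3A and -0.929 with FH. It is thus not the profile of each enzyme, and the genes named had log2 fold changes of -0.58 to -1.57 at 24 h. The points are libraries that share their time points, so r is given as a description.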

How the data were processed

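The authors deposited FPKM per transcript and library, which Cufflinks estimated on models it had assembled in each sample and which were then merged with the Ensembl annotation. Reads had been aligned to hg19 with Mapsplice. Here the FPKM of class = and j transcripts was summed per gene name and tested as log2(FPKM + 0.5) with limma 3.58.1 in R 4.3.3 (lmFit and eBayes with trend, time as a factor, 12 libraries, 2-sided), with Benjamini-Hochberg adjustment over 16680 genes above 0.5 FPKM in at least 3 libraries. Transcripts were tested likewise, and usage as log2 of the transcript over the rest of its gene, with 0.5 added to each. Transcript types were matched by identifier to GENCODE lifted to GRCh37. Permutation tests and figures used Python 3.11.15, scipy 1.17.1 and matplotlib 3.10.9. Named were all 9 genes, and of each list the genes past the study's thresholds or else its highest and lowest. Of transcripts, the 2 leading ones of each gene were named where they passed the filter, and those called in usage. Genes or transcripts named beyond that rule were chosen after their values were seen. The 9 genes and the lists were chosen with earlier results of these data known. Of the lists of related genes, 2 genes are not reported here and were left out of the counts and medians. Same-numbered libraries were checked for pairing by the correlation of their deviations from the time means. All 3 pairs were above 0.1 between 0 h and 2 h (0.129 to 0.362), where the block changed no call, but not between 0 h and 24 h (lowest -0.0008). They were also above 0.1 between 1 h and 2 h (0.117 to 0.428). Between 0 h and 1 h their mean was 0.245, against -0.122 for unlike numbers. Over all times the best match had its own number in 26 of 36 comparisons. The main fits had no block. On simulated data with 200 genes changed by 1.5 on the log2 scale, the 24 h fit over 16680 genes recovered 89% by the thresholds of the study. The changed genes were drawn without those of lowest mean level, and the noise was independent and normal. As 1.5 is larger in size than the change of every one of the 9 genes but IDH2, 89% is not the power for them. Alternatives covered the scaling, pseudocount, filter, class codes, gene unit, block, libraries fitted and each library left out.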

Additional observations from a re-analysis of the deposited data

Results flagged for a closer look

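For 3 of the genes the effect at 24 h differed from that at 2 h by the thresholds of the study, an absolute log2 fold change above 1 included, in the limma contrast of 24 h against 2 h. At an adjusted p under 0.05 of any size it was 7 of the 9, against 50.6% of all genes. The log2 difference was -1.20 for IDH3A (adjusted p = 1.40e-05), 1.34 for IDH2 (adjusted p = 0.00131) and -1.19 for FH (adjusted p = 3.05e-06), against 14.7% of all genes called in that contrast. With TPM over all transcripts the log2 difference was -0.96 for IDH3A (adjusted p = 0.198), 1.44 for IDH2 (adjusted p = 0.0125) and -0.93 for FH (adjusted p = 0.198).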

How the results depend on the processing

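At 24 h against 0 h the count of the 9 genes past the study's thresholds was 3 in every fit that left out a library (3 to 3, and 7 to 7 at an adjusted p under 0.05), and each of FH, IDH3A, CS, DLST, SUCLG1 and SUCLA2 kept its direction and its call at an adjusted p under 0.05 under all 18 alternatives tried for it. IDH2 did so under 17 of 18, the exception being TPM over all transcripts. That scaling gave 215 higher genes of 4108 called in place of 1462 of 3048, and 4 of the 9 genes called, all lower, against 24.6% of all genes. With it 7 of the 9 passed an adjusted p under 0.05 at 2 h, against 54.5% of all genes, and at 24 h against 2 h the counts were 0 by the thresholds of the study and 1 by the second rule, against 3.81% and 8.56% of all genes, with log2 differences of IDH3A (-0.96), FH (-0.93) and IDH2 (1.44) near those without it. It reversed uncalled changes of MDH2 (-0.86 at 24 h), IDH2 (-0.42 at 1 h and -0.70 at 2 h), SUCLA2 (-0.49 at 1 h and -0.81 at 2 h) and OGDH (0.090 between 2 h and 24 h). TPM over transcripts of at least 300 bases gave MDH2 -0.080 at 24 h against 0 h and -0.015 against 2 h. With class = alone MDH2 was -0.86 and, against 2 h, -0.80, and its noncoding share rose by 2.195 points in place of -0.25, since the class j transcript that holds most of its FPKM is then absent. Without a filter, usage was called for 37 of 125 transcripts, against 23% of all 169461, and leaving out a library gave 1 to 3; without 0 h replicate 3 it was 1, ENST00000461263 of MDH2. Leaving out a library moved uncalled changes across 0 for MDH2 (-0.094 to 0.087 at 24 h, -0.042 to 0.138 against 2 h), IDH2 at 1 h (-0.14 to 0.43) and the levels of 3 transcripts, the class j one of IDH3A (-0.24 to 0.23), ENST00000222673 of OGDH (-0.059 to 0.069) and the leading one of MDH2 (-0.026 to 0.165). In the fit with a replicate block, 3 and 7 of the 9 genes were called at 24 h, as without it. Leaving out a library also turned the sign of the change in noncoding share, in points, of IDH3A (-2.67 to 6.10), CS (-2.01 to 0.80), FH (-0.84 to 0.99) and SUCLG1 (-0.35 to 1.39). Among the ratios, with alternatives chosen after seeing the data, class = alone gave FH to MDH2 0.744 times its 0 h value in place of 0.399. The cause of these differences was not tested except where the construction shows it. The study gives the mean and range of sequencing depth over its samples, which was not used here. With no read counts analysed, low transcripts rest on the spread of 3 libraries.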
